A study of Rattus norvegicus with 11 samples.

Results

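Mitosis and spindle genes are the genes that dividing cells use to enter mitosis, build the spindle, separate the chromosomes and cut the cell apart. They were followed in messenger RNA of rat bone marrow mesenchymal stem cells (BMSCs), the adherent stromal cells of marrow. The set was given as 45 gene names, and 44 of them were found by name among the 32883 genes of the expression table, taking the line with the highest mean where a name stood on more than 1 line. Ccnb2, a B-type cyclin, was not analysed here. All 44 were among the 12521 genes tested, which had at least 1 FPKM (reads per transcript length and library depth) in at least 3 libraries. 36 members reached 1 FPKM in every library, whereas Cenpa, Kif15 and Espl1 were below 1 FPKM in every control library. With Bub1b and Kif4a, 5 members reached 1 FPKM in fewer than 3 control libraries, so they passed with the help of the groups where they were higher.

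The study had 11 libraries of BMSCs at day 3 in 3 groups. The 4 IRDC libraries came from BMSCs in conditioned medium of the irradiated arm, which the series text puts at 8 Gy. The 3 imDC libraries came from BMSCs in conditioned medium of the unirradiated arm, put at 0 Gy, and the 4 control libraries from BMSCs without either label. The titles give no dose, so this reading of imDC and IRDC rests on the names. The text calls the medium mDC-CM, taken here as dendritic cell conditioned medium, and does not say how the control medium was made or how the conditioning cells differed apart from radiation. Strain, age, passage and the number of rats are not given in the sources used here. Titles call the libraries biological replicates but name no separate rats or dishes; the p-values cover only how far these libraries differ, which may be technical. RNA was taken from whole cultures, where more cells in mitosis and more mitotic RNA per cell cannot be told apart.

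Cyclin B with its kinase Cdk1 drives entry into mitosis, kinetochores tie chromosomes to spindle microtubules, and the spindle checkpoint holds the cell until every chromosome is attached. The anaphase-promoting complex then marks cyclin B and securin for destruction, the chromatids part, and a contractile ring divides the cell. In human cells many of these genes are switched together late in the cell cycle: the DREAM complex represses them in resting cells, and MYBL2 and FOXM1 activate them. The shared promoter elements are the cell cycle homology region, whose commonest form reads TTTGAA, and the CCAAT box bound by NF-Y.

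Promoter windows from RefSeq (build GRCr8, 250 bases before to 50 bases after a transcript start) were matched by symbol for 38 of the 44 members and gave 39 windows, because Kif2c has 2. No window was at hand for Ccna2, Foxm1, Aurkb, Tpx2, Ube2c and Racgap1. The 7 stretches here, the 150 bases just before the start of the transcript in the table, carry the motif comparison. Pttg1, Top2a and Cdk1 had the largest imDC differences among members with TTTGAA in their window, Ccnb1 and Cdca3 had the largest without it, and Cdc25c and Ckap2 were added after their values were seen, because they ran against the other members. Capitals mark TTTGAA and CCAAT on either strand, so TTCAAA and ATTGG are the same elements read from the opposite strand.
Pttg1: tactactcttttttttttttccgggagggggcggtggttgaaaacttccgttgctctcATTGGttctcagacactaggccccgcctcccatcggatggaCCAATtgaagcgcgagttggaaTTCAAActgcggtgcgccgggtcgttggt
Top2a: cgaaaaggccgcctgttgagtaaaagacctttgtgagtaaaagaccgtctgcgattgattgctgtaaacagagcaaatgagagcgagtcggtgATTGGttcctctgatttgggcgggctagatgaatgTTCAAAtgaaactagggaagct
Cdk1: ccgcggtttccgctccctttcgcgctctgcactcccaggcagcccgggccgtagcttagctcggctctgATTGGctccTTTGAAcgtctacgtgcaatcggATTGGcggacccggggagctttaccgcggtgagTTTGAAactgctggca
Ccnb1: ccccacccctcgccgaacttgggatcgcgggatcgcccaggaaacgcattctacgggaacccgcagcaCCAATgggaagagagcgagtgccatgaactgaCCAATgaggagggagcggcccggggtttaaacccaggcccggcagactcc
Cdca3: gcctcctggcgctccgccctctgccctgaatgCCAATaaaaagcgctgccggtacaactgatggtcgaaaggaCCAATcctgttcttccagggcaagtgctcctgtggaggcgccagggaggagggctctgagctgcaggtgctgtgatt
Cdc25c: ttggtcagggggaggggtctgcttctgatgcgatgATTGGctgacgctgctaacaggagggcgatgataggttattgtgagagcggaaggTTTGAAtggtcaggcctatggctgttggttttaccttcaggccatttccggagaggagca
Ckap2: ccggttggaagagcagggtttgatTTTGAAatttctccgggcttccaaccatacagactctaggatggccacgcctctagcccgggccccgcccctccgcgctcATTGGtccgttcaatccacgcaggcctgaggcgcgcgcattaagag
They lie at chr10:28406327-28406476 (minus strand) for Pttg1, chr10:84473094-84473243 (minus) for Top2a, chr20:19265143-19265292 (plus) for Cdk1 and chr2:33655226-33655375 (minus) for Ccnb1. Those of the others are chr4:159321053-159321202 (plus) for Cdca3, chr18:26630293-26630442 (minus) for Cdc25c and chr16:76541964-76542113 (plus) for Ckap2.

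TTTGAA stood on either strand in 28 of the 39 windows of mitosis and spindle genes (71.8%), in 18.3% of all 33469 rat windows and in 11.8% of the 9945 windows of genes tested. CCAAT stood in 29 member windows (74.4%), against 37.5% of all windows and 37.1% of those of tested genes. Both elements were together in 22 member windows (56.4%), against 7.41% of all windows and 4.85% of those of tested genes. With the related form TTCGAA counted too, and likewise the forms that read CTTGAA or, in other promoters, TTTAAA, 37 of the 39 windows (94.9%) held a match, against 38.7% of all windows and 27.9% of those of tested genes. Short motifs of this kind vary with base composition: the median GC content was 58.7% in member windows, 61.0% in those of tested genes and 51.7% in all. Of 120 matches to any motif searched, only 2 pairs shared bases, in Mki67 and Cdca8.

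The E2F form TTTCGCGC and its variant reading TTTGGCGC, which mark genes switched on at the start of DNA replication, were found in 1 member window (2.56%), that of Cdk1, whose printed stretch holds tttcgcgc 133 bases before the start. All windows held them in 0.792% and those of tested genes in 1.54%. Promoters of DNA replication genes, 41 windows of 38 genes, were set beside these: 36.6% held an E2F form, 9.76% held TTTGAA and 2.44% held TTTGAA together with CCAAT. Most member windows thus held TTTGAA and few replication windows did, whereas CCAAT was frequent in both (61.0% of replication windows).

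**Figure D1:**
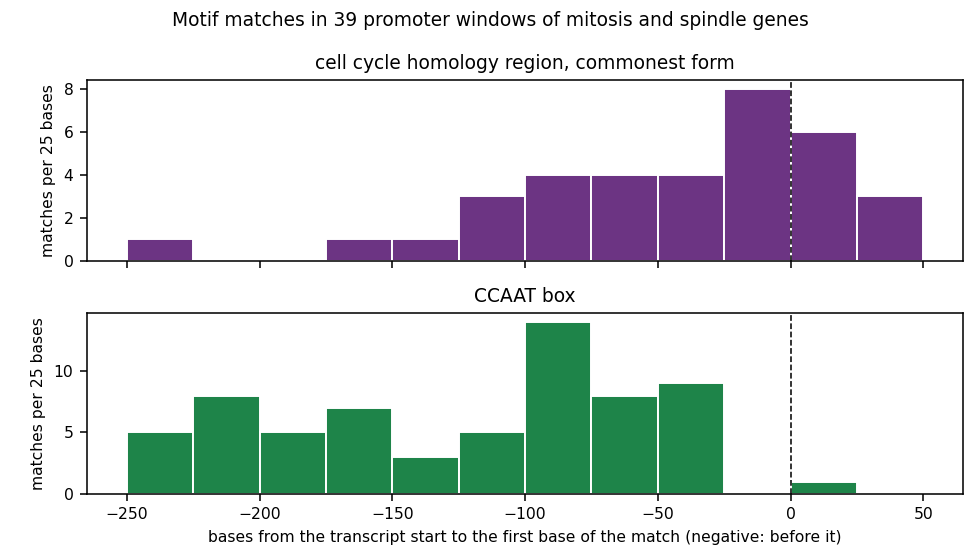
Positions of TTTGAA (top) and CCAAT (bottom) in the 39 promoter windows of mitosis and spindle genes, as matches per 25 bases against distance from the transcript start, shown by the dashed line. The 35 TTTGAA matches lie close to the start (median 29 bases before it), and the 65 CCAAT matches lie farther upstream (median 104 bases before it).

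The 28 members with TTTGAA in a window had a median imDC minus control difference of 1.08 on the log2(FPKM + 1) scale, and the 10 without it 0.98. For IRDC minus imDC the medians were -0.52 with the motif and -0.58 without, and for IRDC minus control 0.55 and 0.34, with no test of these gaps. Cdc25c and Ckap2 hold both elements, as printed, and had other patterns of level than the rest. A match describes these letters only and is no evidence of binding.

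Libraries held 17.8 to 25.5 M reads (on average 21.2 M in IRDC, 18.8 M in imDC and 22.7 M in control). The fewest reads of any member in a library were 19, for Cenpa, and the most were 2041, for Top2a. All 10 stromal markers listed were in the table, and their summed level was 2627 to 2644 FPKM in IRDC, 2528 to 2548 in imDC and 2342 to 2393 in control. Single markers moved both ways: of 9 tested, 4 rose and 5 fell in imDC against control. In IRDC against imDC 5 rose and 4 fell. Nt5e had 160 to 169 FPKM in IRDC and 21.1 to 23.5 in control, and Vcam1 5.40 to 6.34 in IRDC and 31.8 to 33.8 in control. The 20 macrophage and dendritic cell markers summed to 609 to 613 FPKM in IRDC, 951 to 979 in imDC and 989 to 1011 in control. Of the 15 tested, 3 rose and 10 fell in IRDC against imDC, while 4 rose and 11 fell against control. Their part in the results was not tested. Lyz2, a lysozyme of macrophages, had 182 to 189 FPKM in IRDC, 485 to 508 in imDC and 515 to 528 in control. The scavenger receptor gene Cd163 went the other way, at 26.5 to 28.5 FPKM in IRDC, at most 20.6 in imDC and 0.752 to 1.26 in control, and Mrc1 and Cd14 were also highest in IRDC. The dendritic cell genes Flt3 and Ccr7 had at most 4 and 7 reads in any library. Among 8 endothelial markers present, 1 passed the filter, with Emcn and Sox17 at 0, and of 9 lymphocyte and erythroid markers none did, with Cd3e, Ms4a1 and Hbb at 0.

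Mean levels of most members had the same order: highest in imDC, intermediate in IRDC and lowest in control. Means stood in that order for 42 of 44 members, and the share of all genes tested in that order is not given here. Some steps were small. Foxm1 averaged 2.44 FPKM in both IRDC and control, and Cdca8 and Spc24 were not called between these groups. Aurkb and Cenpa were not called between IRDC and imDC. Ckap2 was highest in imDC and lowest in IRDC, and Cdc25c was lowest in IRDC, with overlapping levels in imDC and control. Summed over the 44 genes the level was 223.9 ± 2.15 FPKM in IRDC, 351.6 ± 5.98 in imDC and 146.6 ± 7.41 in control (SD, n = 4, 3 and 4). The sums spanned 222 to 227 FPKM in IRDC, 345 to 357 in imDC and 141 to 157 in control, so no library of a group reached into another group. Libraries of a group lay close together for single genes too, with a median coefficient of variation of 7.86% in IRDC, 7.24% in imDC and 9.32% in control. The widest spreads were those of Birc5 in IRDC (28.7%), Spc25 in imDC (16.9%) and Cenpa in control (33.6%).

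**Figure D2:**
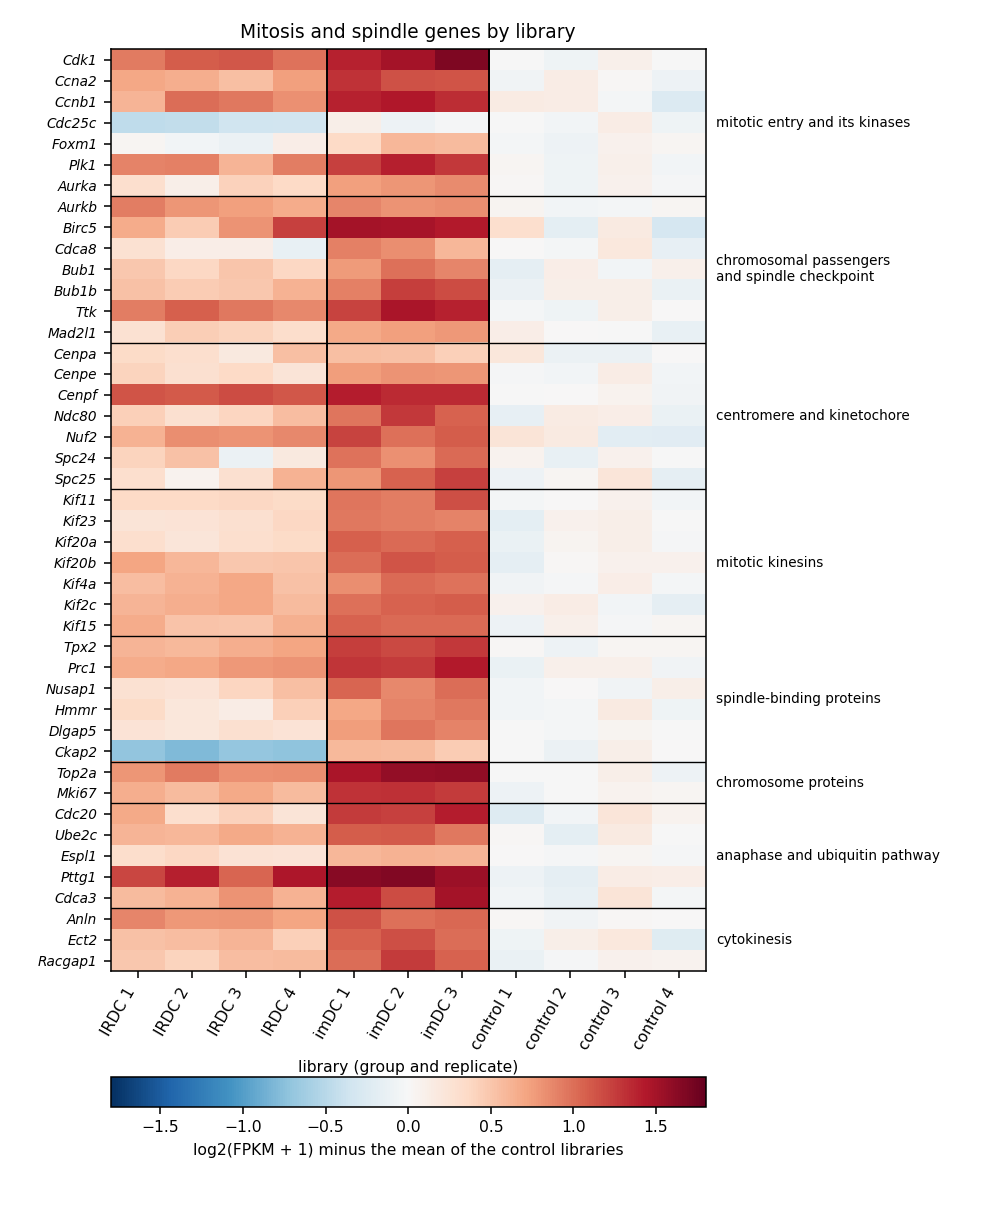
Level of each of the 44 genes (rows, by role) in each of the 11 libraries (columns), as log2(FPKM + 1) minus the mean of the control libraries. The imDC columns are the reddest for nearly all rows, the IRDC columns are paler, and Ckap2 and Cdc25c are blue in the 4 IRDC libraries.

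The comparison of imDC with control sets BMSC cultures in medium of the unirradiated arm against cultures without either label, whose medium is not described. 43 of the 44 members rose and none fell, with Cdc25c the member not called (limma, adjusted p under 0.05). Of all genes tested 23.1% were called higher, 40.1% lower and 63.2% either way. The median member was higher by 1.05 on the log2(FPKM + 1) scale, a scale that understates the change of low genes, while the median of all genes was -0.09, which puts the members 1.14 above it. As ratios of mean FPKM the median was 2.65, the largest 4.33, and 37 members were at least 2-fold higher. All 43 had every imDC library above every control library, which held for 23.0% of all genes tested, while 39.8% had every imDC library below.

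Of the 7 genes of mitotic entry 6 rose. Cdk1, the kinase that starts mitosis (ENSRNOG00000000632), was at 17.8, 19.9, 20.2 and 18.4 FPKM in IRDC, 24.7, 26.7 and 30.7 in imDC and 8.75, 8.34, 9.52 and 8.75 in control. The lowest imDC library was more than 2-fold above each control library, and the groups did not overlap. Cdk1 rose by 1.52 ± 0.070 in imDC over control (log2(FPKM + 1) difference ± SE, adjusted p = 1.6e-09). Ccnb1, the cyclin B that activates Cdk1, was at 5.83, 8.00, 7.64 and 6.93 FPKM in IRDC, 10.7, 11.2 and 10.3 in imDC and 3.96, 3.93, 3.37 and 2.77 in control, again without overlap. It rose by 1.39 ± 0.11 (adjusted p = 2.5e-07). Ccna2, the A-type cyclin of replication and early mitosis, Plk1, the polo-like kinase, and Aurka, the kinase of the spindle poles, rose by 1.19, 1.30 and 0.79.

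Foxm1, which encodes a transcription factor of late cell cycle genes, changed less. It was at 2.52, 2.31, 2.20 and 2.75 FPKM in IRDC, 3.40, 4.19 and 4.09 in imDC and 2.37, 2.22, 2.65 and 2.54 in control. The imDC libraries stood above all others, and those of IRDC and control overlapped. Foxm1 rose by 0.51 ± 0.085 in imDC over control (adjusted p = 0.00023). Cdc25c, which encodes a phosphatase that activates Cdk1, was the exception among entry genes. Its levels were 4.32, 4.38, 4.72 and 4.78 FPKM in IRDC, 6.87, 5.87 and 6.24 in imDC and 6.26, 6.06, 7.05 and 5.97 in control. Those of imDC and control overlapped, with means of 6.33 in both (imDC minus control -0.00043 ± 0.069, adjusted p = 0.996).

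**Figure D3:**
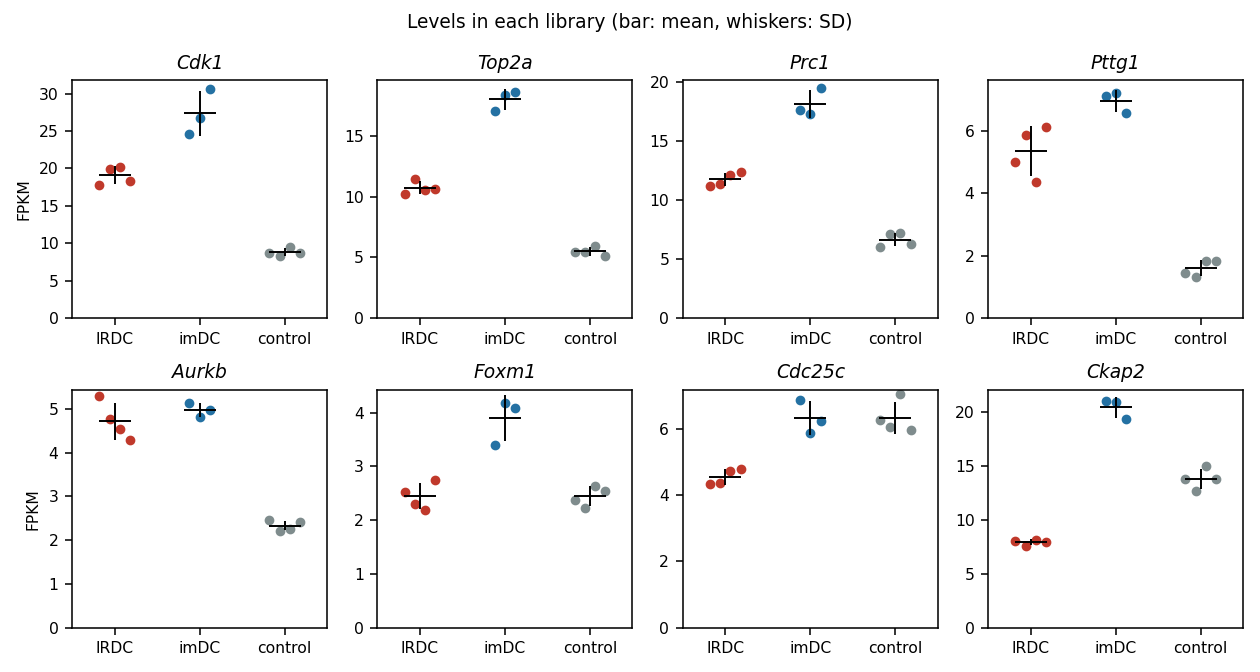
FPKM of 8 genes in each library, with dots for libraries, horizontal bars for group means and whiskers for SD (n = 4 IRDC, 3 imDC and 4 control). Cdk1, Top2a, Prc1 and Pttg1 are highest in imDC and lowest in control, Aurkb overlaps between IRDC and imDC, Foxm1 overlaps between IRDC and control, and Cdc25c and Ckap2 are lowest in IRDC.

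All 7 genes of the chromosomal passenger complex and the spindle checkpoint rose in imDC over control, by 0.73 to 1.47. Mad2l1, the checkpoint protein that holds back Cdc20, was at 7.46, 8.45, 8.20 and 7.66 FPKM in IRDC, 10.2, 10.6 and 10.9 in imDC and 6.62, 6.02, 5.97 and 5.38 in control, 3 bands that did not overlap. It rose by 0.73 ± 0.064 (adjusted p = 7.2e-07). Cdca8, the passenger subunit borealin, was at 6.14, 5.39, 5.38 and 4.39 FPKM in IRDC, 10.1, 9.48 and 7.91 in imDC and 4.91, 4.74, 5.71 and 4.31 in control. The imDC libraries were above all others, and IRDC and control overlapped. Cdca8 rose by 0.78 ± 0.11 (adjusted p = 4.3e-05), while Birc5 (survivin) rose by 1.47 ± 0.17 and Ttk, the kinase that starts checkpoint signalling, by 1.36 ± 0.084.

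At the centromere and kinetochore all 7 members rose as well, by 0.50 to 1.37. Nuf2, a subunit of the Ndc80 complex that grips microtubules, was at 4.64, 5.51, 5.37 and 5.67 FPKM in IRDC, 7.50, 6.26 and 6.78 in imDC and 3.29, 3.08, 2.20 and 2.16 in control. Spc25, another subunit, was at 4.01, 3.26, 3.98 and 5.28 FPKM in IRDC, 6.10, 7.52 and 8.60 in imDC and 2.82, 3.19, 3.75 and 2.63 in control. The imDC libraries of both genes were above every control library. Nuf2 rose by 1.10 ± 0.11 (adjusted p = 3.6e-06) and Spc25 by 1.03 ± 0.14 (adjusted p = 3.5e-05). Cenpf, a large outer kinetochore protein, was at 3.72, 3.64, 3.88 and 3.69 FPKM in IRDC, 4.75, 4.52 and 4.47 in imDC and 1.16, 1.16, 1.27 and 1.07 in control, which is tight within each group. It rose by 1.37 ± 0.062 (adjusted p = 1.3e-09). The smallest rise on the log2(FPKM + 1) scale, that of the centromeric histone gene Cenpa, was 0.50 ± 0.11 (adjusted p = 0.0021) and rested on 19 to 59 reads a library. As a ratio of mean FPKM the Cenpa rise was 2.33. This was above the ratios of Cenpe (2.02) and Spc24 (2.21) and below those of the other members of this role.

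The 7 mitotic kinesins, motor proteins that slide microtubules or carry cargo along them, rose by 0.92 to 1.08 on the log2(FPKM + 1) scale. Their ratios of mean FPKM were less alike, from 2.16 for Kif23 to 3.30 for Kif15. Kif20a, which relocates the passenger complex to the central spindle, was at 7.02, 6.56, 6.98 and 7.19 FPKM in IRDC, 12.6, 12.2 and 12.6 in imDC and 4.94, 5.67, 5.99 and 5.35 in control. Kif23, the motor of the centralspindlin complex, was at 4.11, 4.18, 4.31 and 4.63 FPKM in IRDC, 7.40, 7.24 and 7.11 in imDC and 2.84, 3.59, 3.70 and 3.32 in control. Both fell into 3 bands without overlap. Kif20a rose by 1.06 ± 0.059 (adjusted p = 9.45e-09) and Kif23 by 0.92 ± 0.073 (adjusted p = 2.8e-07).

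Of the spindle-binding proteins all 6 rose, by 0.53 to 1.32. Prc1, which bundles the microtubules of the central spindle, was at 11.2, 11.4, 12.1 and 12.3 FPKM in IRDC, 17.6, 17.3 and 19.4 in imDC and 6.00, 7.12, 7.16 and 6.31 in control, without overlap. It rose by 1.32 ± 0.065 (adjusted p = 2.9e-09). Ckap2, a microtubule-stabilising protein of the spindle, had the highest control mean of any member. Its levels were 8.01, 7.54, 8.14 and 7.95 FPKM in IRDC, 21.0, 20.9 and 19.3 in imDC and 13.8, 12.7, 15.0 and 13.8 in control. It rose by 0.53 ± 0.054 in imDC over control (adjusted p = 2.6e-06), and IRDC lay below both other groups.

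Chromosome proteins rose strongly. Top2a, the topoisomerase that untangles sister chromatids, was at 10.3, 11.5, 10.5 and 10.6 FPKM in IRDC, 17.0, 18.4 and 18.7 in imDC and 5.49, 5.48, 5.98 and 5.11 in control. It rose by 1.55 ± 0.056 (adjusted p = 1.7e-10), with the smallest adjusted p of the members. Mki67, the proliferation marker that coats mitotic chromosomes, was at 6.44, 6.06, 6.62 and 6.05 FPKM in IRDC, 10.7, 10.8 and 10.4 in imDC and 3.46, 3.71, 3.96 and 3.88 in control. It rose by 1.29 ± 0.055 (adjusted p = 6.9e-10), and neither gene had overlapping groups.

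The 5 genes of anaphase and its ubiquitin pathway rose by 0.62 to 1.62. Pttg1 encodes securin, the inhibitor of the protease that opens the cohesin rings, and had the largest difference of the set. It was at 5.00, 5.88, 4.37 and 6.11 FPKM in IRDC, 7.11, 7.22 and 6.56 in imDC and 1.44, 1.32, 1.84 and 1.82 in control, a rise of 1.62 ± 0.11 in imDC over control (adjusted p = 4.8e-08). Cdc20, the activator of the anaphase-promoting complex, was at 5.78, 4.19, 4.59 and 3.96 FPKM in IRDC, 9.03, 8.88 and 10.2 in imDC and 2.58, 3.06, 3.90 and 3.41 in control. Cdca3, linked to the degradation of Wee1 in frog and human cells, was at 3.95, 4.14, 4.82 and 4.12 FPKM in IRDC, 7.84, 6.49 and 8.35 in imDC and 2.21, 2.02, 2.89 and 2.24 in control. None of the 3 genes had overlapping groups; Cdc20 rose by 1.30 ± 0.12 (adjusted p = 1.2e-06) and Cdca3 by 1.36 ± 0.10 (adjusted p = 1.7e-07).

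The 3 cytokinesis genes rose by 1.06 to 1.11. Anln (anillin), the scaffold of the contractile ring, was at 15.2, 14.1, 14.3 and 13.4 FPKM in IRDC, 18.4, 16.5 and 17.0 in imDC and 7.96, 7.46, 7.94 and 7.85 in control. Racgap1, the other centralspindlin subunit, was at 3.41, 3.17, 3.62 and 3.66 FPKM in IRDC, 5.35, 6.53 and 5.59 in imDC and 1.89, 2.10, 2.34 and 2.30 in control. Both had 3 separate bands of levels, and rose by 1.06 ± 0.051 (adjusted p = 2.3e-09) and 1.11 ± 0.081 (adjusted p = 1.3e-07). As deposited 36.6% of all calls were higher; when each library was rescaled to the bulk of its genes (a TMM-like factor) 50.5% were, and 43 members were again called higher.

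**Figure D4:**
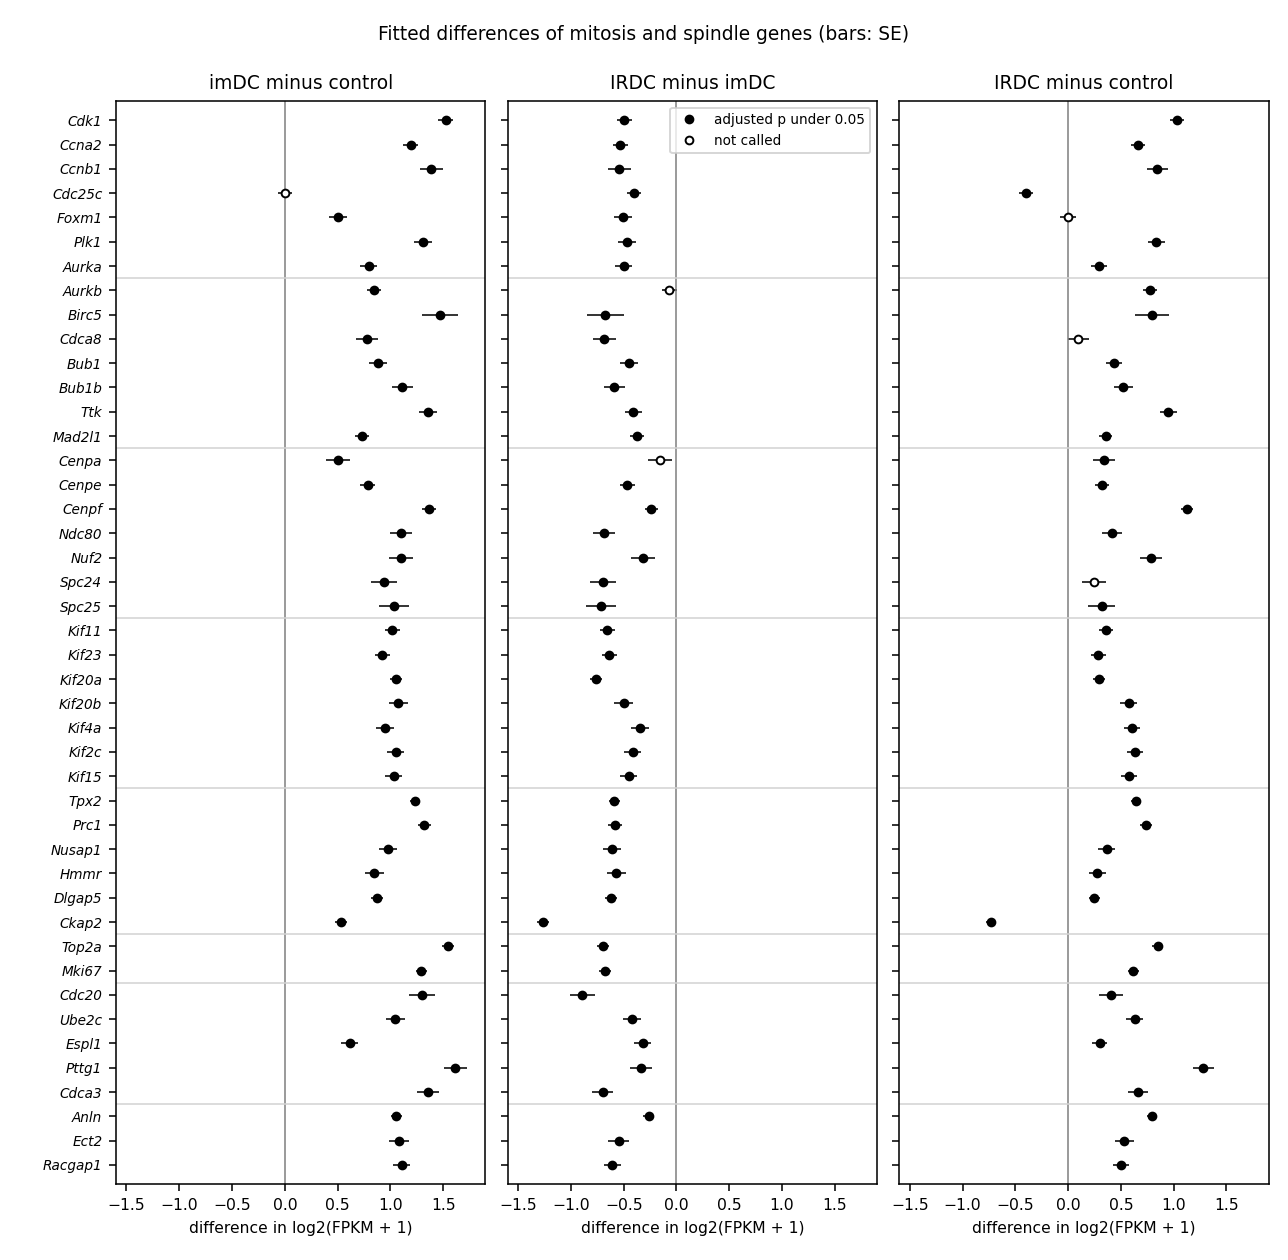
Difference in log2(FPKM + 1) with its SE for each of the 44 genes (rows, in role order) for imDC minus control, IRDC minus imDC and IRDC minus control, with filled points for adjusted p under 0.05 and open points for genes not called. Points lie right of 0 for 43 genes on the left, left of 0 for all 44 in the middle, and right of 0 for most on the right, with Ckap2 and Cdc25c left of it.

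The comparison of IRDC with imDC sets medium of the irradiated arm against that of the unirradiated arm, as read from the names. 42 of the 44 members fell and none rose, with Aurkb and Cenpa not called. Of all genes tested 20.2% were called higher, 38.6% lower and 58.8% either way. The median member stood at -0.54 on the log2 scale, with the median of all genes at -0.09 and the members thus at -0.45 relative to it. Ratios of mean FPKM had a median of 0.637, and 2 members, Ckap2 and Cdc20, were lower by at least 2-fold. All 42 had every IRDC library below every imDC library, which held for 38.5% of all genes tested.

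Ckap2 fell by 1.26 ± 0.054 (adjusted p = 9.8e-10), to 7.91 ± 0.261 FPKM in IRDC, against 20.4 ± 0.951 in imDC. Cdc20 followed at -0.89 ± 0.12 (adjusted p = 4.3e-05) and Kif20a at -0.76 ± 0.059 (adjusted p = 2.7e-07). Of the role groups, all 7 entry genes fell, with differences of -0.40 for Cdc25c to -0.54 for Ccnb1, and Cdk1 at -0.49 ± 0.070 (adjusted p = 6.9e-05). All 7 kinesins fell, with differences of -0.35 to -0.76, as did all 3 cytokinesis genes, with -0.26 to -0.61. For Top2a and Mki67 the differences were -0.70 ± 0.056 and -0.67 ± 0.055. Smaller falls were those of Cenpf (-0.24 ± 0.062, adjusted p = 0.0057), Anln (-0.26 ± 0.051, adjusted p = 0.00070), Nuf2 (-0.32 ± 0.11, adjusted p = 0.032) and Pttg1 (-0.34 ± 0.11, adjusted p = 0.017).

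Aurkb, the kinase of the chromosomal passenger complex, was singled out after its values were seen. It was at 5.29, 4.76, 4.54 and 4.30 FPKM in IRDC, 5.15, 4.82 and 4.98 in imDC and 2.45, 2.22, 2.26 and 2.41 in control. The IRDC and imDC libraries overlapped, and both lay about 2-fold above control. Its IRDC minus imDC difference was -0.07 ± 0.069 (adjusted p = 0.43). The other passenger genes Birc5 and Cdca8 fell in the same comparison, with -0.67 ± 0.17 (adjusted p = 0.0053) and -0.68 ± 0.11 (adjusted p = 0.00015). Whether Aurkb differed from them was not tested.

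Scaling to the bulk of genes left 40 members lower in IRDC than in imDC, without Nuf2 and Pttg1. Quantile normalization left 36, also without Cenpf, Kif4a, Kif2c and Espl1; the share of higher calls among all genes was 34.4% as deposited, 50.7% under the first scaling and 50.2% under the second.

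The comparison of IRDC with control shows how much of the higher level was present with medium of the irradiated arm. 39 members rose, Ckap2 and Cdc25c fell, and Foxm1, Cdca8 and Spc24 were not called. Of all genes tested 24.5% were called higher, 51.5% lower and 76.0% either way. The median member was higher by 0.53 and the median of all genes was at -0.18, a gap of 0.71. Ratios of mean FPKM had a median of 1.70, and 11 members were at least 2-fold higher. No overlap between libraries was seen for 36 members higher and 2 lower in IRDC, against 22.6% and 47.6% of all genes tested.

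Pttg1 (1.28 ± 0.098, adjusted p = 1.1e-07), Cenpf (1.13 ± 0.057, adjusted p = 1.7e-09) and Cdk1 (1.03 ± 0.065, adjusted p = 1.6e-08) had the largest rises over control. Small rises were those of Dlgap5, a spindle assembly factor (0.25 ± 0.053, adjusted p = 0.0010), Hmmr, a spindle pole protein (0.28 ± 0.082, adjusted p = 0.0085), Kif23 (0.29 ± 0.068, adjusted p = 0.0020) and Kif20a (0.29 ± 0.054, adjusted p = 0.00033). Ckap2 fell by 0.73 ± 0.050 (adjusted p = 3.2e-08), to 7.91 ± 0.261 FPKM in IRDC, against 13.8 ± 0.932 in control. Cdc25c fell by 0.40 ± 0.064 (adjusted p = 9.1e-05), to 4.55 ± 0.233 FPKM in IRDC, against 6.33 ± 0.491 in control. Both also fell under scaling to the bulk of genes (-0.54 and -0.23) and under quantile normalization (-0.55 and -0.17).

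Foxm1 averaged 2.44 ± 0.244 FPKM in IRDC and 2.44 ± 0.187 in control (adjusted p = 0.996), but was called higher in IRDC, by 0.25, under quantile normalization (adjusted p = 0.013). Cdca8 averaged 5.33 ± 0.716 FPKM in IRDC and 4.92 ± 0.583 in control (difference 0.09 ± 0.099, adjusted p = 0.40). Spc24, the partner of Spc25, averaged 4.03 ± 0.931 FPKM in IRDC and 3.19 ± 0.266 in control (difference 0.25 ± 0.12, adjusted p = 0.076). Both were called higher under scaling to the bulk of genes (0.27 and 0.41) and under quantile normalization (0.32 and 0.48), and Spc24 also without IRDC replicate 3 (0.36, adjusted p = 0.0038). Spc25 was higher in IRDC by 0.32 ± 0.13 (adjusted p = 0.040), a call that was lost when any of 6 single libraries was left out and with no filter on low genes (adjusted p = 0.080). Under scaling to the bulk of genes and under quantile normalization 50.3% and 46.3% of all calls were higher, in place of 32.3%.

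The position of the IRDC mean between control (0%) and imDC (100%), in FPKM, describes the members on 1 scale. The 3 comparisons share libraries, so this is a description of levels with no test. Over the 43 members called in imDC against control the median position was 41.7%, with quartiles of 28.2% and 51.3%. The range ran from -89.1% for Ckap2 to 90.1% for Aurkb; after scaling to the bulk of genes these were -57.5% and 103.6%, and the median was 50.7%. Cenpf (75.2%), Pttg1 (69.7%) and Anln (67.7%) followed Aurkb, while Foxm1 (0.11%), Cdca8 (9.61%), Kif20a (20.8%) and Spc24 (21.7%) had the lowest positions after Ckap2. With each library left out in turn Foxm1 ranged over -6.92% to 5.78%, Cdca8 over 3.24% to 17.0%, Kif20a over 18.6% to 22.7% and Spc24 over 13.2% to 31.6%. By role the medians were 47.4% for entry genes, 42.3% for passenger and checkpoint genes, 34.3% for centromere and kinetochore, 44.2% for kinesins and 28.3% for spindle-binding proteins. They were 43.2% for the anaphase group and 39.9% for cytokinesis.

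Other genes of the mitotic machinery were counted in 7 lists of pathway genes outside the set, and in imDC against control each list held genes called in both directions. Counts of every list below are to be read against the shares of all genes tested called higher and lower. These were 23.1% and 40.1% in imDC against control, 20.2% and 38.6% in IRDC against imDC, and 24.5% and 51.5% in IRDC against control. Of 33 other centromere and kinetochore genes 20 rose and 7 fell in imDC against control, 20 fell and none rose in IRDC against imDC, and 14 rose and 9 fell in IRDC against control. The last 2 comparisons depended on scaling: TMM-like scaling gave 1 higher and 16 lower, then 20 higher and 7 lower, and quantile normalization 2 higher and 12 lower, then 22 higher and 5 lower. Cenph, a subunit of the inner kinetochore, averaged 3.80 ± 0.567 FPKM in IRDC, 6.00 ± 0.436 in imDC and 1.54 ± 0.122 in control. Cenpp was lowest in IRDC, at 0.365 ± 0.125 FPKM, with 1.17 ± 0.244 in imDC and 0.912 ± 0.123 in control. Cenpm averaged 0.642 ± 0.236 FPKM in IRDC, 2.12 ± 0.198 in imDC and 0.756 ± 0.179 in control. For Cenpp and Cenpm no IRDC library reached 1 FPKM, and the highest control library stood at 1.01. Both genes therefore passed the filter with the help of imDC, where they were highest. Of 43 other spindle and centrosome genes 27 rose and 7 fell in imDC against control, 2 rose and 25 fell in IRDC against imDC, and 22 rose and 9 fell in IRDC against control. TMM-like scaling gave 5 higher and 19 lower, then 27 higher and 5 lower, in the last 2 comparisons, and quantile normalization 7 higher and 14 lower, then 28 higher and 4 lower. Haus7, an augmin subunit that branches spindle microtubules, rose in IRDC against imDC, with 40.9 ± 2.07 FPKM in IRDC, 28.0 ± 1.36 in imDC and 11.4 ± 0.842 in control. Gtse1, a microtubule protein that also restrains p53, fell in imDC and in IRDC against control, where most members rose. In IRDC against imDC it fell, as most members did. Its levels were 5.91 ± 0.314 FPKM in IRDC, 12.1 ± 1.07 in imDC and 23.3 ± 1.12 in control.

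Chromosome structure, the ubiquitin ligase and tubulin showed mixed counts. Of 21 condensin and cohesin genes tested 12 rose and 7 fell in imDC against control, and 3 rose and 14 fell in IRDC against imDC. TMM-like scaling gave 13 higher and 4 lower, then 7 higher and 12 lower, and quantile normalization 12 higher and 5 lower, then 6 higher and 10 lower. Ncapg, a condensin subunit, averaged 6.66 ± 0.493 FPKM in IRDC, 8.65 ± 0.380 in imDC and 3.01 ± 0.261 in control. Smc2 averaged 8.89 ± 0.354 FPKM in IRDC, 13.1 ± 0.475 in imDC and 9.51 ± 0.819 in control, and was not called in IRDC against control. Of 17 genes of the anaphase-promoting complex and its regulators 5 rose and 3 fell in imDC against control (all genes: 23.1% and 40.1%). In IRDC against imDC 1 rose and 9 fell (all genes: 20.2% and 38.6%). This count was 2 higher and 6 lower under TMM-like scaling and 2 higher and 7 lower under quantile normalization. The core subunit Anapc2 averaged 29.6 ± 1.29 FPKM in IRDC, 39.1 ± 0.503 in imDC and 51.0 ± 1.70 in control. Fbxo5, an inhibitor of the complex, averaged 3.07 ± 0.342, 5.14 ± 0.433 and 1.84 ± 0.314 FPKM in the same 3 groups. Of 9 tubulin genes 6 rose and 1 fell in imDC against control, and 2 rose and 6 fell in IRDC against imDC, where TMM-like scaling gave 2 higher and 4 lower. Tubb6 averaged 119 ± 3.25 FPKM in IRDC, 101 ± 2.71 in imDC and 60.4 ± 1.93 in control, and Tuba1a 116 ± 2.75 in IRDC, 127 ± 1.20 in imDC and 210 ± 6.46 in control; reads of such near-identical genes may be split uncertainly.

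Regulators of Cdk1 were called in both directions. Of 9 tested 4 rose (Cdc25a, Mastl, Cks2 and Ccnf) and 2 fell (Ensa and Ppp2r2a) in imDC against control, and 7 fell in IRDC against imDC. Wee1, the kinase that holds Cdk1 inactive, averaged 5.13 ± 0.253 FPKM in IRDC, 7.23 ± 0.145 in imDC and 7.03 ± 0.308 in control. Cdc25b, a phosphatase related to Cdc25c, averaged 2.40 ± 0.231 FPKM in IRDC, 3.89 ± 0.166 in imDC and 3.88 ± 0.340 in control. Both fell in IRDC against imDC (-0.42 ± 0.053 and -0.53 ± 0.077) and were not called in imDC against control, as was the case for Cdc25c.

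Among 17 E2F, MYB and DREAM factors 4 rose and 5 fell in imDC against control (all genes: 23.1% and 40.1%). In IRDC against imDC 2 rose and 5 fell (all genes: 20.2% and 38.6%). Scaling turned both balances: TMM-like scaling gave 6 higher and 3 lower in each, and quantile normalization 5 higher and 3 lower, then 6 higher and 3 lower. Mybl2, which encodes an activator of late cell cycle genes, averaged 5.62 ± 0.332 FPKM in IRDC, 3.68 ± 0.248 in imDC and 0.922 ± 0.272 in control. It was therefore highest in IRDC, where the mitotic genes were lower than in imDC, and rose in IRDC over imDC by 0.50 ± 0.10 (adjusted p = 0.0010). Rbl2, a pocket protein of the repressive DREAM complex, averaged 10.6 ± 0.387 FPKM in IRDC, 15.4 ± 0.164 in imDC and 22.2 ± 0.257 in control. E2f1 was not analysed here.

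**Figure D5:**
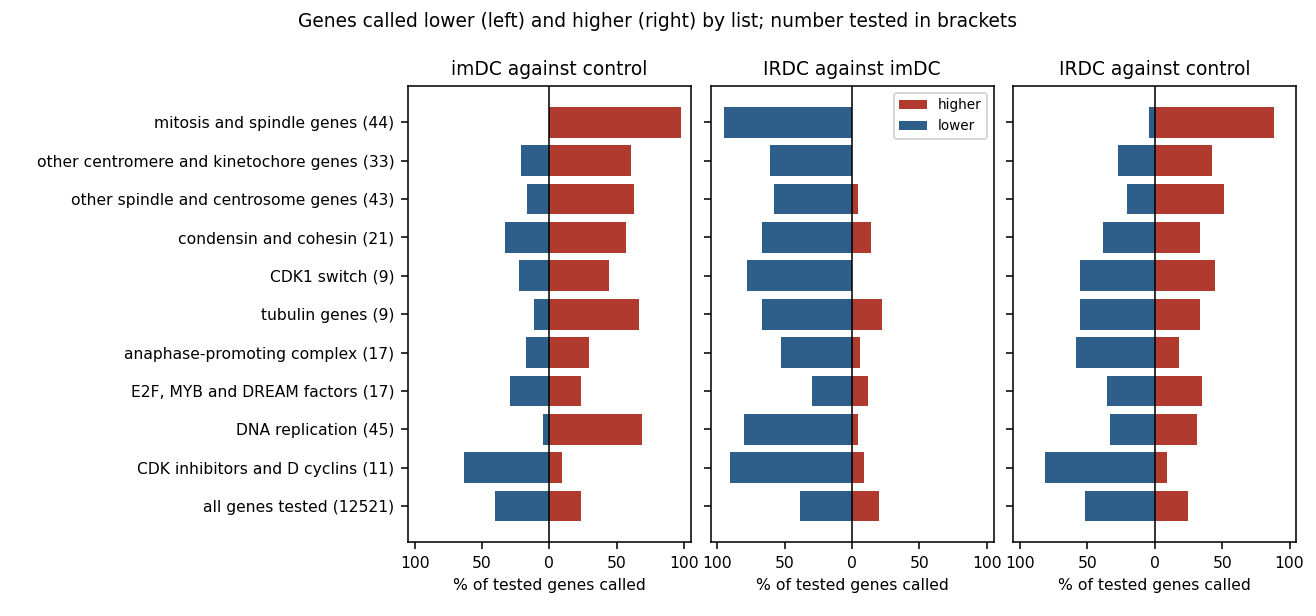
Percent of tested genes called higher (right of 0) and lower (left of 0) in each comparison, for the mitosis and spindle genes, 9 lists of related genes and all genes tested. The bar of the mitosis and spindle genes is almost wholly on the higher side for imDC against control and for IRDC against control, and wholly on the lower side for IRDC against imDC.

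Most of the 45 DNA replication genes tested rose in imDC against control, and most fell in IRDC against imDC. 31 rose and 2 fell in imDC against control, 2 rose and 36 fell in IRDC against imDC, and 14 rose and 15 fell in IRDC against control, the last split being 22 higher and 8 lower under TMM-like scaling and 21 higher and 8 lower under quantile normalization. In IRDC against imDC these gave 3 higher and 28 lower, and 3 higher and 24 lower. Rrm2, the small subunit of ribonucleotide reductase, averaged 38.3 ± 0.891 FPKM in IRDC, 47.9 ± 1.59 in imDC and 13.5 ± 0.413 in control. Uhrf1, needed to copy DNA methylation after replication, averaged 3.32 ± 0.283 FPKM in IRDC, 6.92 ± 0.170 in imDC and 2.19 ± 0.177 in control. Tyms did not share this order, with 5.75 ± 0.773 FPKM in IRDC, 11.6 ± 1.51 in imDC and 13.3 ± 1.16 in control. It fell in IRDC against control by 1.08 ± 0.093 (adjusted p = 3.2e-07).

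Of 11 CDK inhibitors and D cyclins 1 rose (Cdkn1b) and 7 fell in imDC against control, 1 rose and 10 fell in IRDC against imDC, and 1 rose and 9 fell in IRDC against control; TMM-like scaling gave 3 higher and 7 lower in imDC against control. Unlike most mitotic genes, the 3 described here were lowest in IRDC and highest in control. Cdkn1a (p21), an inhibitor induced by p53, averaged 112 ± 4.17 FPKM in IRDC, 165 ± 0.880 in imDC and 295 ± 4.83 in control. Ccnd1, the cyclin of early growth, averaged 62.6 ± 2.13 FPKM in IRDC, 112 ± 1.00 in imDC and 169 ± 3.35 in control. Cdkn2b (p15) averaged 1.45 ± 0.189 FPKM in IRDC, 12.9 ± 0.658 in imDC and 43.2 ± 0.944 in control.

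Some member levels may hold reads of a neighbour, because the sources used here do not say whether counting used strand. RefSeq genes that overlap a member and are also in the table were Tex52 for Foxm1, Ern2 for Plk1, Fam210b for Aurka, Nostrin for Spc25, Ide for Kif11, Cdc23 for Kif20a, Pdzd11 for Kif4a, RGD1311745 for Kif15, Ndufaf1 for Nusap1 and Usp5 for Cdca3. Slbpl for Cdc25c and Matcap2 for Anln are protein-coding overlapping genes that were not in the table. Pseudogenes not in it overlap Nuf2, Nusap1 and Ect2, and non-coding RNA genes overlap Kif11, Kif20b, Kif4a, Tpx2, Prc1 and Espl1.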

How the data were processed

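The deposited values are FPKM, which the authors made from mRNA libraries; the submitters' processing notes name build rn6 and, with no role given, HTSeq 0.13.5, Cufflinks 0.17.3, STAR 2.7.1a, SAMtools 1.3.1, cutadapt 1.18 and FastQC 0.11.9. Strandedness is not given in the sources used here. Steps in the FPKM values gave whole reads for 21486 of 21487 genes above 0 (relative tolerance 1e-08), used for depth and for 1 alternative fit; 97.1 to 98.1% of each depth lay in the table.

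Values were taken as log2(FPKM + 1), for genes reaching 1 FPKM in 3 or more libraries. A limma fit took all 11 libraries (lmFit, eBayes with a trend, two-sided, no block), with Benjamini-Hochberg adjustment over 12521 genes per comparison and calls at adjusted p under 0.05. The fit was tested on simulated data. Ratios are of mean FPKM.

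The members and lists were chosen with earlier results of these data known. Values in every library are given for the 2 members of each role with the highest mean and for the 3 with the largest differences in each comparison; Foxm1, Cdc25c and Aurkb were singled out after their values were seen. Of each other list up to 3 called genes with the largest differences in 2 of the comparisons were candidates for naming, beside Mybl2, Cdkn1a and Ccnd1. Promoter motifs were searched on both strands. Alternatives were a replicate block, quantile normalization, TMM-like scaling, pseudocounts of 0.1 and 0.5, a filter of 5 FPKM or none, a fit without trend, a fit of the 2 groups compared, and each library left out; voom on recovered reads was added after seeing the data. Fits used limma 3.58.1 in R 4.3.3, and tables and figures used pandas 2.3.3, NumPy 2.4.6 and matplotlib 3.10.9 in Python 3.11.15.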

Additional observations from a re-analysis of the deposited data

Results flagged for a closer look

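Among the 88 sets of 4 libraries tested (44 genes in IRDC and in control), 3 held a library far from the others. Chance gives about 1 set in 20, so this is no more than chance would give. Plk1 was at 4.19 FPKM in IRDC replicate 3, and at 5.29 to 5.42 in the other IRDC libraries. Cenpe, a kinetochore motor, was at 2.76 FPKM in control replicate 3, and at 2.31 to 2.37 in the other control libraries. Tpx2, a spindle assembly factor, was at 4.34 FPKM in control replicate 2, and at 4.77 to 4.83 in the other control libraries.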

How the results depend on the processing

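With a filter of 5 FPKM only 27 members were tested, of which 26 were higher in imDC than in control, 27 lower in IRDC than in imDC and 23 higher in IRDC than in control; fewer members tested account for these smaller counts. Leaving out each library in turn gave 41 to 43 members higher in imDC than in control, 40 to 42 lower in IRDC than in imDC, and for IRDC against control 37 to 39 higher and 2 to 2 lower. Genes called numbered 7342 to 7890, 6739 to 7340 and 9244 to 9489 in these comparisons. Foxm1 in IRDC against control turned to 0.25 under quantile normalization, and Cks1b, a Cdk1 subunit, turned to 0.0133 (adjusted p = 0.87) under TMM-like scaling; the cause was not tested. TMM-like scaling moved the median of all genes in IRDC against control to 0.005, and quantile normalization to -0.03, as against -0.18; the members then stood 0.66 and 0.80 above it, as against 0.71. Nuf2 in IRDC against imDC also lost its call with no filter, with a pseudocount of 0.1 and without any of 4 single libraries, and Pttg1 without imDC replicate 2 (adjusted p = 0.055).

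Replicate numbers did not pair the libraries: deviations of same-numbered libraries correlated at -0.048 to 0.069 over 10 pairs, and 0 of them passed 0.1. With the replicate block 43 members were higher in imDC than in control, 41 lower in IRDC than in imDC (without Nuf2, -0.30, adjusted p = 0.077), and for IRDC against control 39 higher and 2 lower.

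Members with few reads, such as Cenpa in control and Birc5 in IRDC, can vary widely between libraries, and FPKM gives shares of a library, not RNA per cell.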
